A study of Mus musculus with 56 samples.

Results

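The 22 saline-injected tibialis anterior muscles of WT and HOMOmKO mice, out of 56 samples in the series, were compared across the days after injection. They were chosen by genotype, injection and day as given in the sample titles: 7 muscles at 3 days post injection (dpi), 7 at 7 dpi and 8 at 21 dpi. HOMOmKO mice carried the mechanical knock-out allele of titin on both chromosomes; the allele puts a site for a plant virus protease into titin, the elastic filament that spans the sarcomere from its Z-disc to its middle. WT mice carried no such allele. These groups held 4 HOMOmKO and 3 WT muscles at 3 dpi, 4 and 3 at 7 dpi, and 4 and 4 at 21 dpi. All 22 received saline buffer and none received the adeno-associated virus that, in the other arm of the study, delivers a protease fused to a green fluorescent protein. No uninjected muscle is among them, so 21 dpi, the latest day, served as the point of comparison, and the difference between days was estimated with genotype as a block. The labels give neither age, sex, strain nor dissection time, and nothing in them tells whether muscles sharing a group were taken from different mice; p-values here reflect the spread among these libraries, which may be partly technical.

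Tibialis anterior is a fast-twitch muscle of the lower leg. An injection into it pushes a needle and a fluid volume between fibres that are wrapped in basement membrane and in collagen-rich connective tissue. In skeletal muscle, fibroblasts and fibro-adipogenic progenitors make fibrillar collagens, macrophages and other leukocytes enter damaged areas, and satellite cells activate Myod1 and then make fibres that transiently express embryonic and neonatal myosins.

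The libraries were sequenced to 19.41 to 27.13 M reads assigned to genes (median 22.005 M), and the viral transgene was at 0 to 6 reads in them, above 0 in 5, against 56 to 34407 reads in virus-injected libraries. Fast myosin Myh4 ranged from 26011 to 59379 normalised counts (reads per 1000000 of effective library size); type IIb fibres, which contain it, make up much of this muscle. The first principal component, with 25.9% of the variance, separated the genotypes, and the second, with 9.9%, separated 3 from 21 dpi. Libraries at 3 dpi lay at 0.6 to 16 on the second component in HOMOmKO and at 3.4 to 11.1 in WT, and those at 21 dpi at -18.2 to -6 in HOMOmKO and at -5.2 to -2.8 in WT. Libraries at 7 dpi spread over both ranges in HOMOmKO, from -9 to 6.5. In WT they lay from -0.8 to 11.5, above the range at 21 dpi, and the highest lay above every WT library at 3 dpi.

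**Figure D1:**
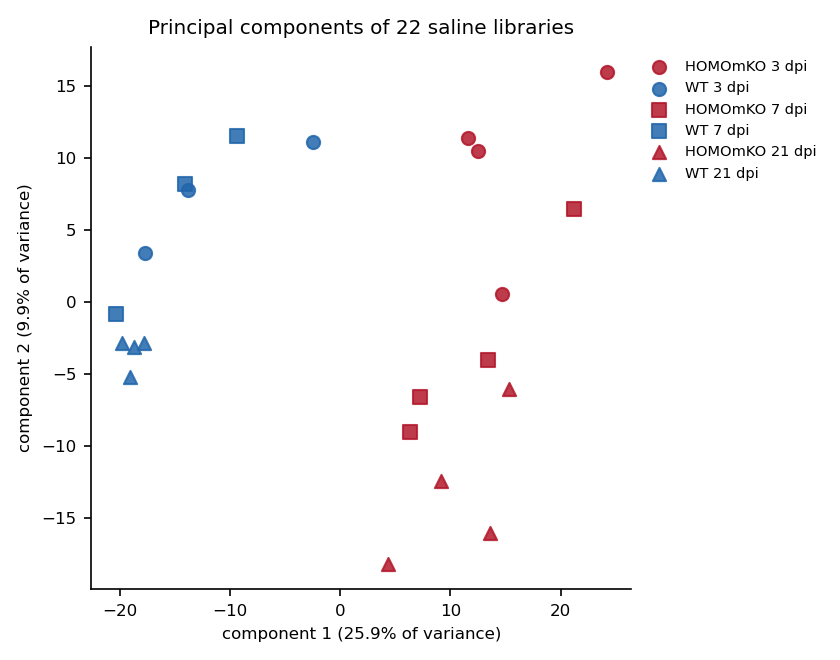
Principal components of the 22 saline libraries, with the first component (25.9% of variance) on the x axis and the second (9.9%) on the y axis; colour marks genotype and shape marks day. Libraries at 3 dpi lie at 0.6 or above on the second component those at 21 dpi at -2.8 or below, and those at 7 dpi between -9 and 11.5.

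A feature of the libraries that their labels do not give has to be set out before the results. H2-Ea-ps, a histocompatibility gene on chromosome 17 (34341959 to 34344645, minus strand, GRCm38) that is transcribed in some mouse haplotypes and silent in others, was at 2.33 to 13.9 normalised counts in 11 of the 22 libraries and at 0.0238 to 0.07 in the other 11. In the same 11 libraries Gm10260 on chromosome 13 was at 28.1 to 64.8, against 0.0238 to 0.618 in the others, and the ribosomal protein gene Rps18 on chromosome 17 was at 31.1 to 91, against 110 to 123. Reads of Rps18 and Gm10260 may be divided between them by the quantification. These 11 libraries made up 1 of 7 at 3 dpi, 4 of 7 at 7 dpi and 6 of 8 at 21 dpi. They were 1 of 4 HOMOmKO and 0 of 3 WT libraries at 3 dpi, 4 of 4 and 0 of 3 at 7 dpi, and 4 of 4 and 2 of 4 at 21 dpi. Day and this split therefore overlap in part, and their shares in a difference cannot be told apart fully with 22 libraries. This holds for the second principal component too. The library at 3 dpi with H2-Ea-ps, HOMOmKO replicate 2, was the lowest of its day on it, at 0.6. The main results are given also with a term for these libraries or among the 11 libraries without H2-Ea-ps, both chosen after the data were seen. No HOMOmKO library at 7 or 21 dpi lacked H2-Ea-ps. Among the 11 libraries without it, the difference between 3 and 21 dpi was thus set by 3 WT libraries at 3 dpi and 2 at 21 dpi. Every such value is a WT difference, in which genotype and the split cannot be told apart.

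Collagens and other connective tissue genes were higher at 3 dpi than at 21 dpi, and a larger number of other genes were slightly lower. Of 14870 genes tested, 588 (3.95%) passed an adjusted p of 0.05 in limma, 215 (1.45%) higher and 373 (2.51%) lower at 3 dpi. The changes were small: the median log2 difference was 0.39 among the higher genes and -0.24 among the lower ones, and 63 and 44 genes reached 0.5 in size. Values at 3 and 21 dpi did not overlap for 21 of the higher and 58 of the lower genes. A choice by p-value favours such genes, and the share over all genes was not counted. The last gene called was Gm42890 (log2 -0.53, adjusted p = 0.0497) and the next, not called, was Ppib (0.26, adjusted p = 0.0501).

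With a term for the H2-Ea-ps libraries 2 genes were called, Plxnb2 higher and Hook1 lower. Among the 6 libraries at 3 dpi and 2 at 21 dpi without H2-Ea-ps 0 were called. Of these, only the WT libraries, 3 at 3 dpi and 2 at 21 dpi, set the difference. The medians of the estimates moved less, and choosing the genes in the same libraries favours this. Over the 215 higher genes the median log2 difference was 0.38 with the term and 0.37 without those libraries, and over the 373 lower genes -0.21 and -0.19. The median standard error (SE) of the higher genes was 0.13 with the term, 0.16 without the libraries and 0.10 in the 22-library fit. Single genes moved more: 50 of the 588 estimates shrank by more than 1.5 times with the term, and 164 without the libraries (127 of them among the lower genes), counting reversals. H2-Ea-ps, Gm10260 and Gm11361, also on chromosome 13, are themselves among the 373. Gm10260 had -3.30 in the 22-library fit and -0.24 with the term, Gm11361 -2.22 and -0.43, and H2-Ea-ps -1.79 and 0.00. The count also fell by more than 1.5 times when single libraries were left out: it was 286 without HOMOmKO 3 dpi replicate 3, 353 without replicate 1 and 382 without replicate 4 of that group, 302, 355 and 389 without HOMOmKO 21 dpi replicates 4, 2 and 3, and 365 without WT 3 dpi replicate 1. A fit sharing its spread estimate with all 56 libraries of the series called 68, of which 67 were among the 588.

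**Figure D2:**
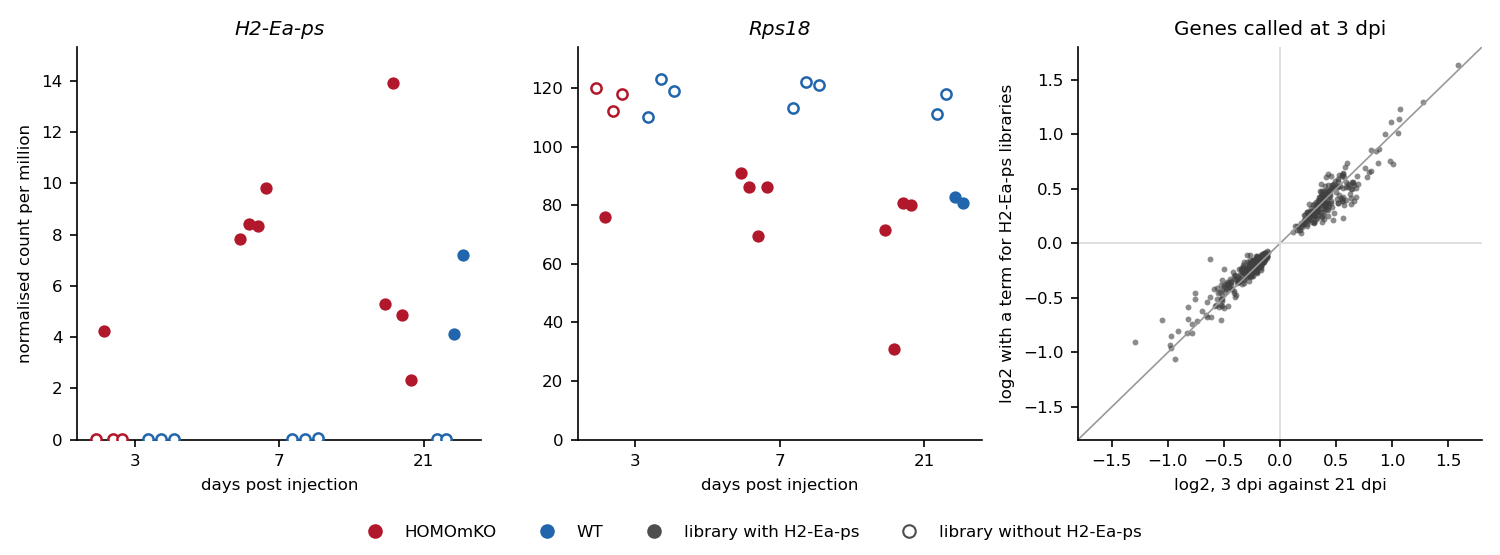
Normalised counts of H2-Ea-ps and of Rps18 in each saline library by day (HOMOmKO red, WT blue; filled points are libraries with H2-Ea-ps), and, at the right, the log2 difference between 3 and 21 dpi of 584 called genes without (x axis) and with (y axis) a term for the filled libraries; 4 genes beyond the axes, Gm10260, Gm11361, H2-Ea-ps and Gm10221, are not drawn, and the first 3 of them lie far from equality. Rps18 is at 91 or below in every filled library and at 110 or above in every open one; of all 588 genes, 50 shrink by more than 1.5 times with the term.

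Collagens of types I and III rose together. Of 26 genes on a list of extracellular matrix components 15 were higher at 3 dpi and 0 lower, with a median log2 difference of 0.54, against 0.01 over all genes. Of all genes 1.45% were higher and 2.51% lower, shares that apply to every list below. Col1a1, the alpha 1 chain of type I collagen (chromosome 11, 94936224 to 94953042, plus strand), stood at 227, 121, 183 and 131 normalised counts in HOMOmKO and at 335, 195 and 148 in WT at 3 dpi. At 7 dpi it stood at 175, 132, 147 and 124 in HOMOmKO and at 190, 122 and 155 in WT, and at 21 dpi at 117, 108, 97.3 and 110 in HOMOmKO and at 76.8, 89.7, 95.1 and 98.8 in WT. Every library at 3 dpi was above every library at 21 dpi, and the 7 dpi libraries were also all above them. The difference at 3 dpi was 0.88 ± 0.16 on the log2 scale (SE; 1.84-fold, adjusted p = 0.0038), and it was 0.86 with the H2-Ea-ps term (adjusted p = 0.125).

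The partner chain Col1a2 ranged from 162 to 342 at 3 dpi (median 238), from 152 to 225 at 7 dpi (186) and from 92.8 to 165 at 21 dpi (134). Its difference was 0.86 ± 0.14 (adjusted p = 0.00212), and the lowest library at 3 dpi lay just inside the range at 21 dpi. Col3a1, type III collagen, ranged from 221 to 488 (median 327), 231 to 415 (280) and 160 to 307 (179) on the 3 days, a difference of 0.80 ± 0.14 at 3 dpi (adjusted p = 0.00293). With the H2-Ea-ps term they differed by 0.85 (adjusted p = 0.0938) and 0.66 (adjusted p = 0.162).

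The stretches just before the RefSeq starts of both genes are shown because Col1a2 and Col3a1 were among the strongest rises of the list; the table used here has no window for Col1a1. Windows of 120 bases before the start were searched on both strands for CCAAT, the box bound by the factor NF-Y, and for TATAAA, the core of the TATA box, the motifs being chosen after the values were seen. Capitals mark a match. Of 32851 such windows in the GRCm38.p6 table, 21.3% hold CCAAT and 6.34% hold TATAAA.
Col1a2 (chr6:4505498-4505617, plus strand): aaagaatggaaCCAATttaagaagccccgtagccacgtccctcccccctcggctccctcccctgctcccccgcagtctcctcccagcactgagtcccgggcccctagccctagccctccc
Col3a1 (chr1:45311418-45311537, plus strand): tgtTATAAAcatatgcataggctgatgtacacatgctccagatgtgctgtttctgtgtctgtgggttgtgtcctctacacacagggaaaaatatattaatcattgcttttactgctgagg
The match in Col1a2 begins 109 bases before the start and that in Col3a1 117 bases before it. Neither sequence was tested for activity.

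Type V and VI collagens and their partners moved the same way. Col5a2 differed by 0.64 (adjusted p = 0.00447), Col6a1 by 0.59 (0.00293), Col6a2 by 0.61 (0.00651) and Col6a3 by 0.56 (0.00237). Of 36 collagen chains measured 10 were higher and 1 was lower, beside 1.45% and 2.51% of all genes, with a median of 0.32. This list and those of laminins, collagen processing, proteasome subunits and initiation factors were drawn up after values had been seen. The exception was Col24a1, a minor fibrillar chain, which ranged from 3.68 to 10.4 at 3 dpi (median 7.26), from 4.11 to 13.3 at 7 dpi (10.2) and from 10.7 to 18.3 at 21 dpi (13.0). It fell by 0.91 at 3 dpi (SE 0.19, adjusted p = 0.0105), with no overlap between 3 and 21 dpi.

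Some genes for making, crosslinking and organising collagen were higher as well. Sparc, a collagen-binding matrix glycoprotein, ranged from 196 to 362 at 3 dpi (median 261), 201 to 312 at 7 dpi (225) and 147 to 193 at 21 dpi (170). Its difference at 3 dpi was 0.65 ± 0.11 (adjusted p = 0.00219), every library at 3 dpi being above every one at 21 dpi, and 0.55 with the H2-Ea-ps term (adjusted p = 0.131). Loxl2, a lysyl oxidase that crosslinks collagen, differed by 0.81 ± 0.13 (adjusted p = 0.00212), and its relative Lox by 0.64 (adjusted p = 0.0444), while Loxl1 did not pass (0.16, adjusted p = 0.442). Of 19 genes of collagen folding and processing 7 were higher and 0 lower, beside 1.45% and 2.51% of all genes. Among them were Serpinh1, the collagen chaperone of the endoplasmic reticulum (0.45 ± 0.09, adjusted p = 0.00951), and Fkbp10, a collagen prolyl isomerase (0.52 ± 0.11, adjusted p = 0.00993). Adamts2, which removes the amino-terminal propeptide of procollagen, differed by 0.55 ± 0.09 (adjusted p = 0.00212).

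Basement membrane genes shared the direction. Of 11 laminin and nidogen genes 5 were higher, beside 1.45% of all genes, and 0 lower. The 5 included Nid1, a linker of laminin and collagen IV (0.46 ± 0.08, adjusted p = 0.00237), and Lamc1, the common gamma chain (0.34, adjusted p = 0.0124). Npnt, the integrin ligand nephronectin, was at 3.23 to 10.6 at 3 dpi (median 6.56), 1.75 to 9.0 at 7 dpi (3.81) and 1.03 to 4.34 at 21 dpi (2.14), a difference of 1.06 ± 0.18 (adjusted p = 0.00237). The type IV collagens Col4a1 (0.49, adjusted p = 0.057) and Col4a2 (0.40, adjusted p = 0.0829) did not pass. Nor did Fn1, fibronectin (0.32, adjusted p = 0.172), Postn, periostin (0.57, adjusted p = 0.0536), or Tnc, tenascin C (0.18, adjusted p = 0.772).

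**Figure D3:**
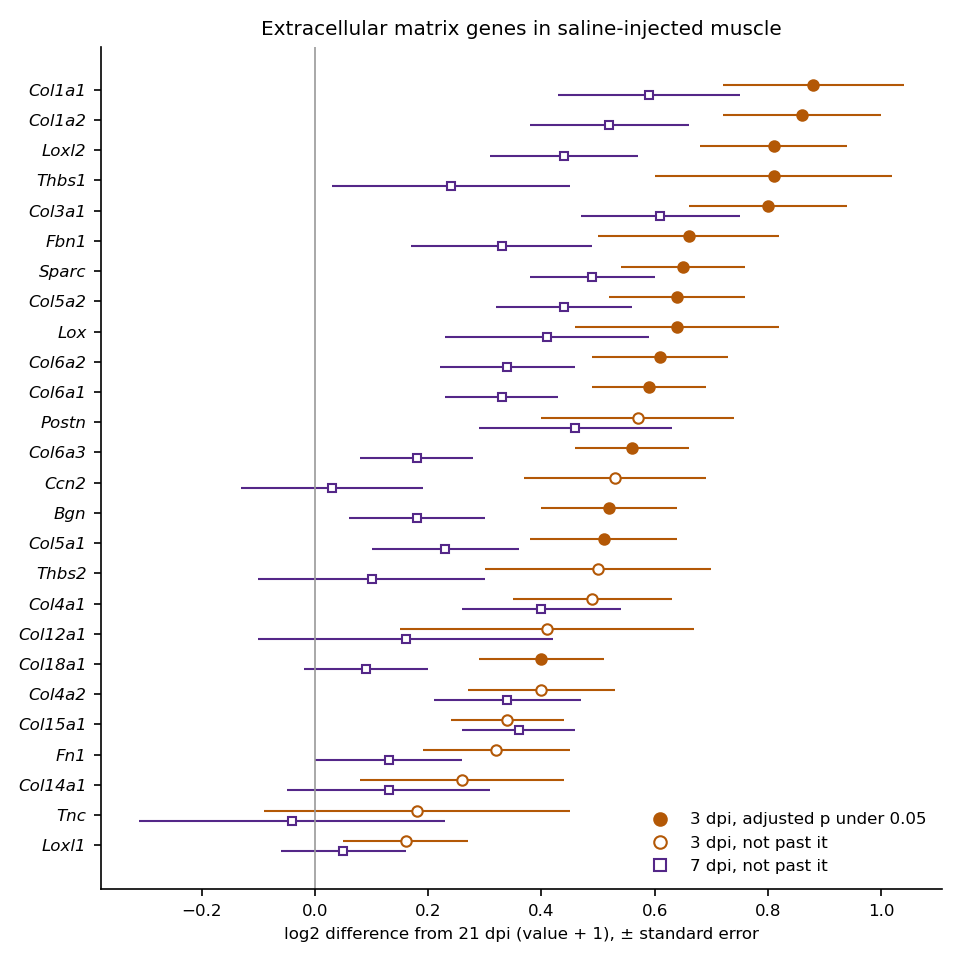
Log2 difference (value + 1) from 21 dpi with its standard error for the 26 extracellular matrix genes at 3 dpi (circles, filled where the adjusted p is under 0.05) and at 7 dpi (squares). At 3 dpi 15 genes are filled and all 26 estimates lie above 0; at 7 dpi no gene passed.

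The list as a whole kept its direction in the alternatives. All 26 matrix genes were above 0 at 3 dpi also with the H2-Ea-ps term (median 0.49) and among libraries without H2-Ea-ps (median 0.62), although 0 were called in either. Summed over the list, libraries ranged from 1744 to 2913 at 3 dpi, from 1739 to 2352 at 7 dpi and from 1309 to 1846 at 21 dpi.

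Some markers of stromal cells, which make matrix, were higher too. Of 12 markers of fibro-adipogenic progenitors, the stromal cells of muscle, 4 were higher at 3 dpi, beside 1.45% of all genes, and 0 lower. The 4 were Gsn (0.31), Mfap5 (0.57), Pdgfra (0.39) and Dcn (0.24). Among libraries without H2-Ea-ps these were 0.14, 0.52, 0.20 and 0.28. The sum of all 12 markers ranged from 1032 to 1423 at 3 dpi, 960 to 1214 at 7 dpi and 862 to 1099 at 21 dpi. The 8 tendon markers were all above 0, with a median of 0.75, but none passed. Their sum ranged from 82.1 to 388 at 3 dpi, from 37.9 to 142 at 7 dpi and from 45.6 to 194 at 21 dpi. Of the defining tendon markers, Scx averaged 4.03 at 3 dpi and 3.22 at 21 dpi, Tnmd 6.66 and 2.55, and Mkx 0.77 and 0.37. Cilp2, a matrix gene that was called (1.28 ± 0.36, adjusted p = 0.0489), ranged from 1.53 to 14.1 at 3 dpi and from 0.368 to 3.81 at 21 dpi. The part of tendon or stromal tissue in the matrix result was not tested, and in whole muscle more cells of a type and more RNA per cell cannot be told apart.

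The gene with the largest rise by the rule for naming genes was Angptl7 (chromosome 4, 148495183 to 148500460, minus strand), which encodes a secreted angiopoietin-like protein. At 3 dpi it stood at 4.35, 4.42, 11.0 and 2.39 normalised counts in HOMOmKO and at 9.78, 15 and 3.52 in WT. At 7 dpi the values were 0.686, 1.4, 2.99 and 1.09 in HOMOmKO and 3.96, 2.72 and 1.89 in WT, and at 21 dpi 1.1, 1.64, 1.31 and 2.2 in HOMOmKO and 0.501, 1.64, 2.02 and 1.34 in WT. The lowest library at 3 dpi was just above the highest at 21 dpi. The difference was 1.58 ± 0.28 at 3 dpi (3.00-fold on the value + 1 scale, which compresses a fold at this level; adjusted p = 0.00282) and 0.30 ± 0.28 at 7 dpi (adjusted p = 0.741). With no such offset, edgeR on recovered reads gave 2.28 at 3 dpi. With the H2-Ea-ps term the limma value was 1.64 (adjusted p = 0.0939).

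Tfrc, the transferrin receptor through which cells take up iron, stood at 202 to 321 at 3 dpi (median 241), 149 to 326 at 7 dpi (202) and 127 to 196 at 21 dpi (143). It differed by 0.76 ± 0.14 at 3 dpi (adjusted p = 0.00501), with no overlap with 21 dpi, and by 0.69 with the H2-Ea-ps term (adjusted p = 0.162). Gja1, the gap junction protein connexin 43, differed by 0.55 ± 0.12 (adjusted p = 0.0114) and Angptl1 by 0.42 ± 0.11 (adjusted p = 0.0403). Plxnb2, a semaphorin receptor, was at 15.1 to 16.6 at 3 dpi, 12 to 14.7 at 7 dpi and 9.73 to 12.3 at 21 dpi. Its difference of 0.45 ± 0.06 (adjusted p = 0.000439) was 0.49 with the H2-Ea-ps term (adjusted p = 0.0306), the only rise called there. The only adjusted p over 0.05 with a single library left out was that of Angptl1, at up to 0.089, among the 10 rises so named. Their choice by non-overlap favours this.

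**Figure D4:**
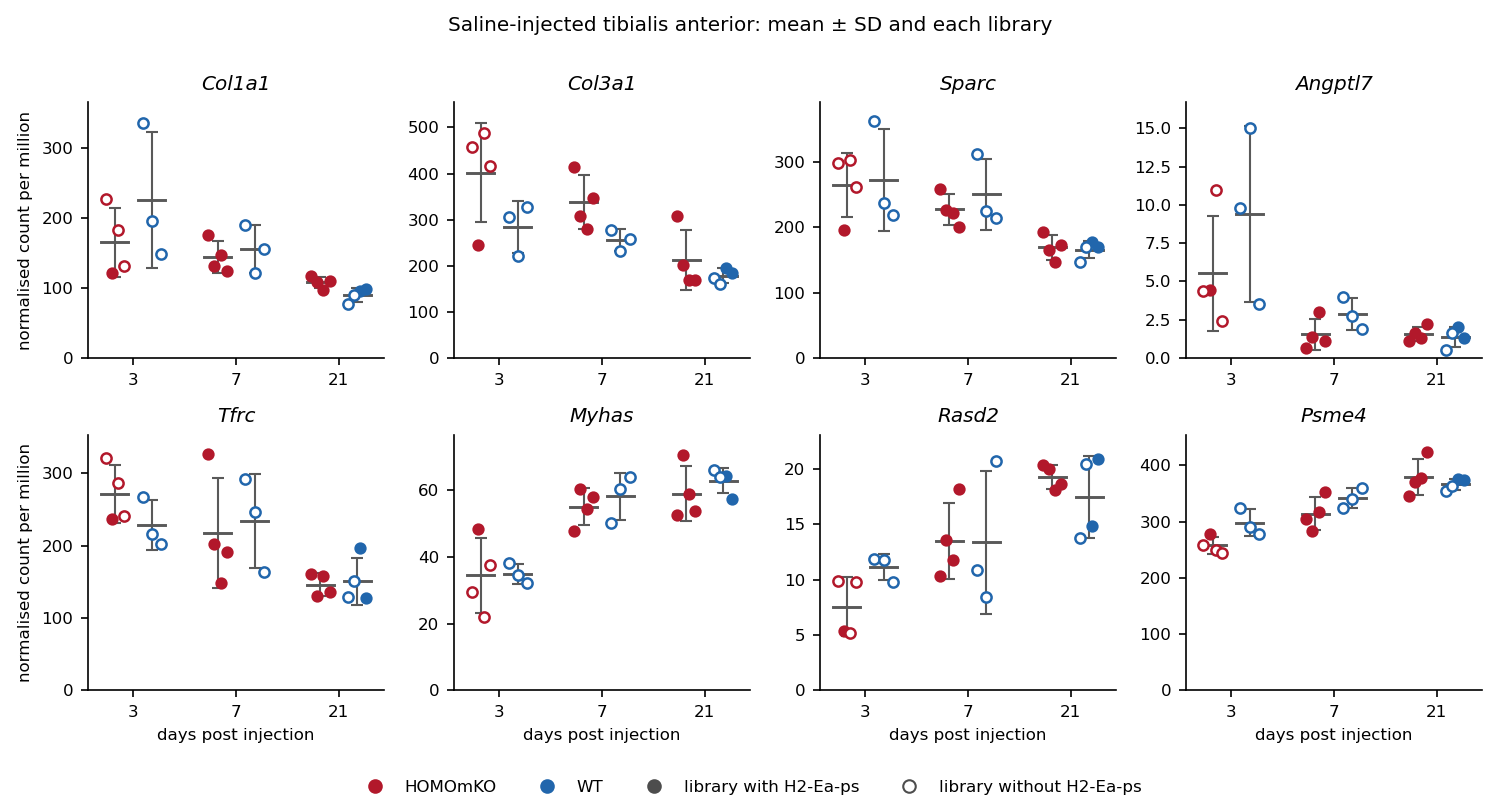
Normalised counts of 8 genes in every saline library by day (HOMOmKO red and left, WT blue and right), with the mean and SD of each group; filled points are libraries with H2-Ea-ps. Col1a1, Sparc, Angptl7 and Tfrc lie higher at 3 dpi than at 21 dpi with no overlap, Myhas, Rasd2 and Psme4 lie lower with no overlap, and Col3a1 overlaps between the days.

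Some macrophage and other leukocyte genes were higher at 3 dpi. Of 22 macrophage markers 3 were higher, beside 1.45% of all genes, and 0 lower, and 21 lay above 0, with a median of 0.38: C1qa, a complement component (0.63 ± 0.17, adjusted p = 0.0351), Itgam, the integrin CD11b (0.62 ± 0.17, adjusted p = 0.0403), and Lgals3, galectin 3 (0.52 ± 0.14, adjusted p = 0.0405). C1qa ranged from 4.85 to 10.8 at 3 dpi, from 3.41 to 7.04 at 7 dpi and from 2.68 to 5.85 at 21 dpi, so the days overlapped. Each of the 3 lost its call in some fits without a single library, with adjusted p up to 0.0807, 0.0941 and 0.0893. With the H2-Ea-ps term the list had 0 calls and a median of 0.21, and 21 lay above 0. Leukocyte genes outside the list, named after their values were seen, were called too. Among them were Fcgr2b, an inhibitory receptor for immunoglobulin G (0.78, or 0.61 with the term), Irf5, a transcription factor of myeloid cells (0.66, or 0.54), and Coro1a, a leukocyte actin-binding protein (0.56, or 0.23). The sum of the markers ranged from 94.5 to 202 at 3 dpi, 85 to 137 at 7 dpi and 54.7 to 119 at 21 dpi.

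Adgre1, which encodes the macrophage protein F4/80, had means of 3.15 ± 1.67, 3.10 ± 0.463 and 1.95 ± 0.595 on days 3, 7 and 21 (± SD over 7, 7 and 8 libraries), and did not pass (adjusted p = 0.219). Of 5 mast cell markers 2 were higher, beside 1.45% of all genes. They were the proteases Mcpt4 (0.68 ± 0.15, adjusted p = 0.0119) and Tpsb2 (0.63 ± 0.17, adjusted p = 0.0349). With the H2-Ea-ps term they were at 0.43 and 0.36, with 0 calls on the list and a median of 0.18 in place of 0.42. Of 9 B and plasma cell genes 1 was lower, the immunoglobulin chain Ighm (-1.05 ± 0.27, adjusted p = 0.0337), whose reads may be divided among immunoglobulin segments; it was at -0.70 with the term and at -0.24 among libraries without H2-Ea-ps. None of 5 neutrophil markers (of 13 listed), 15 T and natural killer cell markers or 19 chemokine and inflammatory cytokine genes passed. Levels were low: 4 of the 5, all 15 and 11 of the 19 averaged under 1 normalised count. Ccl2, which recruits monocytes, was at 0.203 at 3 dpi, 0.195 at 7 dpi and 0.221 at 21 dpi.

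Genes of fibre repair showed 1 call. Myh8, the neonatal myosin heavy chain, ranged from 6.35 to 13.0 at 3 dpi, 2.36 to 11.1 at 7 dpi and 2.17 to 8.23 at 21 dpi. It differed by 0.94 ± 0.20 (adjusted p = 0.0114) and by 1.01 with the H2-Ea-ps term (adjusted p = 0.149). Its reads may be shared with neighbouring myosin genes. The embryonic myosin Myh3 (0.50, adjusted p = 0.11) and Myod1 (-0.24, adjusted p = 0.549) did not pass, and none of 12 satellite cell and 20 proliferation genes did. The immediate early gene Fos (0.11, adjusted p = 0.931) and Ankrd1, a stress-induced partner of titin (0.04, adjusted p = 0.976), did not pass either. Titin itself, Ttn, averaged 12159 ± 1735 at 3 dpi, 12277 ± 1714 at 7 dpi and 12503 ± 1636 at 21 dpi (SD, n = 7, 7 and 8).

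Among the lower genes at 3 dpi, Hook1 and Psme4 had the smallest adjusted p. Hook1, which encodes a microtubule-binding adaptor, was at 18.0 to 27.9 at 3 dpi (median 23.5), 22.2 to 31.1 at 7 dpi (27.7) and 31.0 to 41.0 at 21 dpi (34.9). Its difference of -0.57 ± 0.07 (adjusted p = 0.000439) was the same with the H2-Ea-ps term (adjusted p = 0.0354) and passed among WT libraries alone (-0.57, adjusted p = 0.0425).

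Myhas, a noncoding RNA transcribed antisense within the fast myosin cluster (chromosome 11, 67211256 to 67237573, minus strand), was the gene called also between 3 and 7 dpi. It stood at 29.6, 48.3, 22.1 and 37.7 in HOMOmKO and at 38.1, 34.6 and 32.1 in WT at 3 dpi. At 7 dpi it stood at 47.7, 60.4, 54.2 and 57.9 in HOMOmKO and at 50.1, 60.2 and 63.9 in WT, and at 21 dpi at 52.6, 70.5, 58.8 and 53.8 in HOMOmKO and at 65.9, 63.8, 64.2 and 57.4 in WT. HOMOmKO replicate 2, the library at 3 dpi with H2-Ea-ps, was the highest of that day. The difference from 21 dpi was -0.82 ± 0.11 (adjusted p = 0.000588), at -0.81 in HOMOmKO and -0.83 in WT, and -0.69 with the H2-Ea-ps term (adjusted p = 0.0857). Whether reads were counted by strand is not stated in the labels, so those of Myhas and of the overlapping myosin genes cannot be told apart with certainty. The bases before its RefSeq start hold neither motif. By the GENCODE coordinates given above they lie inside the gene, whose start GENCODE places closer to Myh4.
Myhas (chr11:67237282-67237401, minus strand): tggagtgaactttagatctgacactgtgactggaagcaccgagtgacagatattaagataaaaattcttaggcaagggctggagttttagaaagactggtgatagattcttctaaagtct

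Myh4, the fast type IIb myosin (chromosome 11, 67238029 to 67260446, plus strand), lies next to it. It stood at 33607, 26257, 26011 and 31919 in HOMOmKO and at 38752, 47476 and 48347 in WT at 3 dpi. At 21 dpi the values were 42862, 42562, 53946 and 59379 in HOMOmKO and 47308, 43985, 47816 and 56251 in WT. The difference was -0.47 ± 0.13 (adjusted p = 0.0481), at -0.75 in HOMOmKO and -0.12 in WT, a gap between the genotypes of -0.63 that did not pass (adjusted p = 0.586). It was -0.16 after quantile normalization (adjusted p = 0.292) and -0.03 among libraries without H2-Ea-ps. Of 14 fast fibre genes the other one called was Mybpc2, the fast myosin-binding protein C (-0.37 ± 0.10, adjusted p = 0.0333; -0.08 among libraries without H2-Ea-ps). Of 12 slow fibre genes Casq2, the slow and cardiac calsequestrin, was higher (0.59 ± 0.15, adjusted p = 0.0322), at 0.38 in HOMOmKO and 0.82 in WT. The median of the slow list was 0.60, with 11 of 12 above 0. It was 0.93 in HOMOmKO and -0.01 in WT, and -0.14 among libraries without H2-Ea-ps. The gap between the genotypes over the list was not tested. The slow myosin Myh7 ranged from 3.24 to 466 at 3 dpi, from 3.62 to 223 at 7 dpi and from 4.04 to 83.6 at 21 dpi, and did not pass (adjusted p = 0.675).

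Besides Col24a1, Hook1 and Myhas, the largest falls that met the naming rule, which asks for no overlap between 3 and 21 dpi, were those of Rasd2, a Ras-like GTPase (-0.97 ± 0.18, adjusted p = 0.00421), Tbc1d16, a Rab GTPase-activating protein (-0.58 ± 0.11, adjusted p = 0.00626), and Fzd7, a Wnt receptor (-0.53 ± 0.09, adjusted p = 0.00248). Rasd2 was at 5.16 to 11.9 at 3 dpi (median 9.81), 8.46 to 20.7 at 7 dpi (11.8) and 13.8 to 20.9 at 21 dpi (19.3). Slc8a3, a sodium-calcium exchanger (-0.56 ± 0.12), Sorbs2, an adaptor at the Z-disc (-0.56 ± 0.09), Cpeb1, an RNA-binding regulator of polyadenylation (-0.53 ± 0.08), and Gpcpd1, a glycerophosphodiesterase (-0.48 ± 0.08), completed the 10 named by rule. All 10 kept their call with any single library left out (adjusted p up to 0.0305), which their choice by non-overlap favours. Of the 10, Hook1 alone kept its call with the H2-Ea-ps term. Called falls outside the rule that were larger than most of these, named after their values were seen, included Scd1, a fatty acid desaturase (-1.30, or -0.46 among libraries without H2-Ea-ps), Fasn, the fatty acid synthase (-0.76, or -0.29), and Casr, the calcium-sensing receptor (-0.98, or -0.67). Of 7 adipocyte markers measured none passed, and 2 lay above 0. Their median was -0.56, or -0.17 among libraries without H2-Ea-ps. The part of fat tissue in the falls of Scd1 and Fasn was not tested.

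Parts of the protein degradation and translation machinery were slightly lower. Of 41 proteasome subunit genes 7 were lower, beside 2.51% of all genes, and 0 higher, and the list's median was -0.07. With the H2-Ea-ps term 0 were called (median -0.09), and among libraries without H2-Ea-ps the median was -0.02, with 14 of 41 above 0. Psme4, the proteasome activator PA200, stood at 259, 279, 249 and 244 in HOMOmKO and at 325, 291 and 279 in WT at 3 dpi, against 346, 370, 377 and 424 in HOMOmKO and 355, 363, 375 and 374 in WT at 21 dpi. The days did not overlap, and the difference was -0.43 ± 0.06 (adjusted p = 0.000439), or -0.38 with the H2-Ea-ps term (adjusted p = 0.0857). Psmd1, a subunit of the regulatory particle, ranged from 139 to 158 at 3 dpi, 161 to 182 at 7 dpi and 164 to 201 at 21 dpi (-0.23 ± 0.04, adjusted p = 0.00219). Single genes of related function, chosen after their values were seen, were also called: Vcp, a segregase that feeds the proteasome (-0.24), Ulk1, a kinase that starts autophagy (-0.38), Sqstm1, the autophagy receptor p62 (-0.26), and Cul3, a ubiquitin ligase scaffold (-0.25). Of 54 initiation factor genes 8 were lower, beside 2.51% of all genes, and 0 higher. The 8 included the scaffold Eif4g1 (-0.21 ± 0.03, adjusted p = 0.00212), and 0 of the list were called with the term.

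Of 19 circadian genes 2 were lower at 3 dpi, beside 2.51% of all genes, and 0 higher. They were Rora (-0.35 ± 0.06, adjusted p = 0.00257) and Nr1d2 (-0.30 ± 0.08, adjusted p = 0.0304), both nuclear receptors that act on the Arntl promoter. The list's median was -0.29. It was -0.17 both with the H2-Ea-ps term and among libraries without H2-Ea-ps, with 0 called. Arntl, the core activator, had means of 21.0 on day 3, 26.2 on day 7 and 18.0 on day 21, with SDs of 6.16 and 2.37 on the first and last of these days. Its output gene Dbp had means of 59.0 ± 11.4, 66.0 ± 41.6 and 90.0 ± 17.5 (± SD over 7, 7 and 8 libraries). WT 7 dpi replicate 3 held 8.8 for Arntl and 143 for Dbp, the lowest and highest of the 22. The part of the hour of dissection in any difference between days was not tested. Irs2, an adaptor of the insulin receptor, was lower at 3 dpi (-0.76 ± 0.20, adjusted p = 0.0339; -0.45 with the H2-Ea-ps term), as was Phka1, a subunit of phosphorylase kinase (-0.37 ± 0.06, adjusted p = 0.00237).

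**Figure D5:**
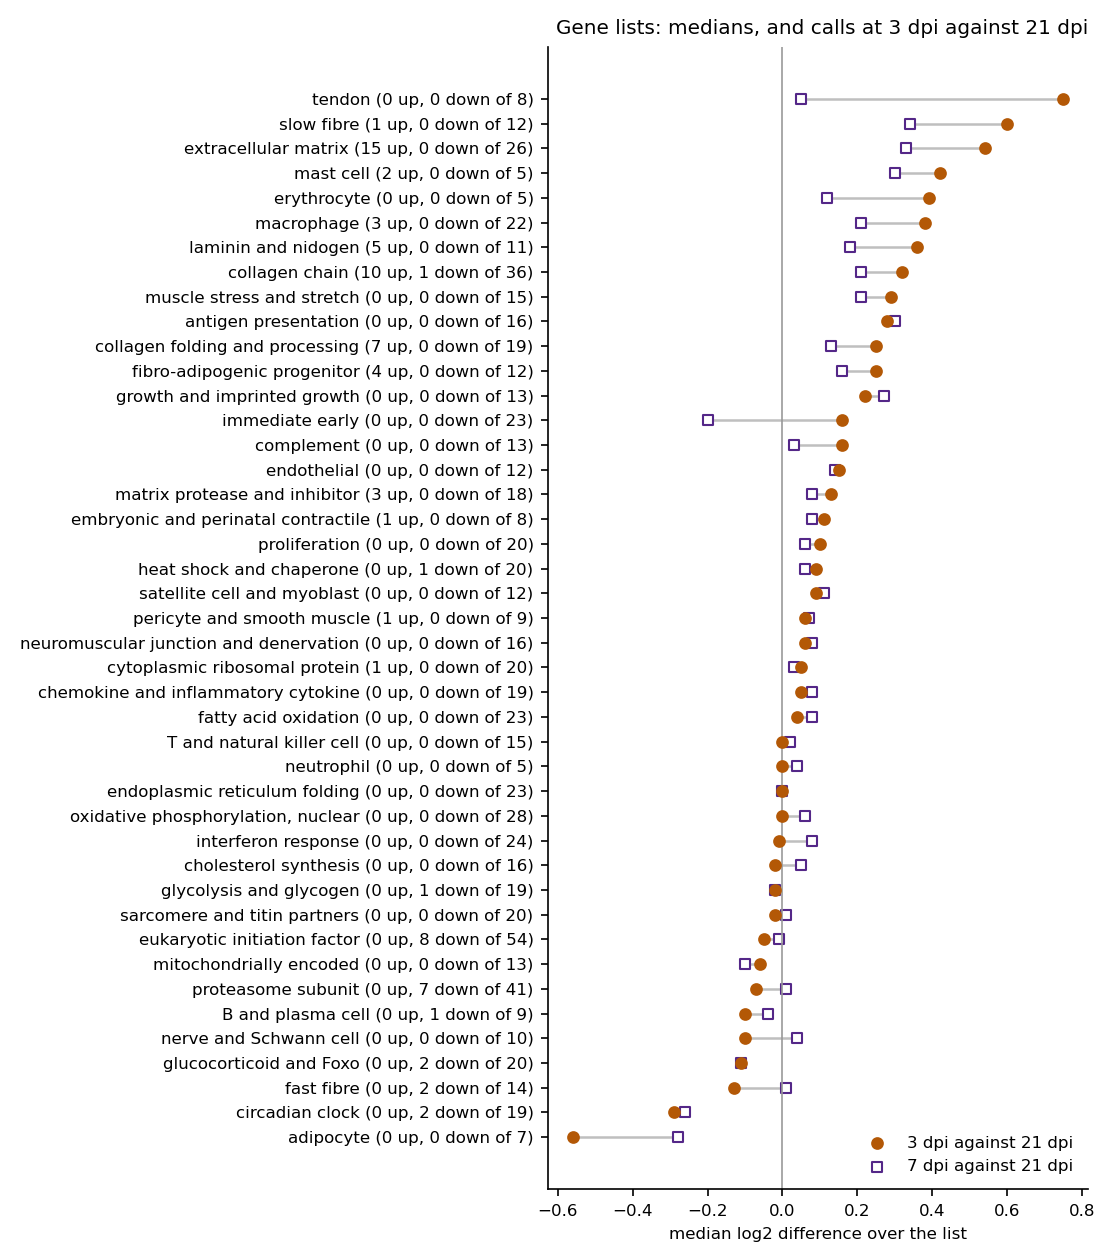
Median log2 difference over each gene list with at least 5 measured genes, at 3 dpi (filled circles) and at 7 dpi (open squares) against 21 dpi; the labels give the number of genes called higher and lower at 3 dpi out of those measured. Extracellular matrix has the most calls (15 of 26), while the tendon list has the highest median (0.75) with 0 calls.

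At 7 dpi no gene was called against 21 dpi in limma (0% of 14870), while 1601 had an unadjusted p under 0.05; edgeR called 0 and DESeq2 58. The estimates of several lead genes were smaller than at 3 dpi and of the same sign. Col1a1 differed by 0.59 ± 0.16 at 7 dpi (adjusted p = 0.176), Col3a1 by 0.61 ± 0.14 (adjusted p = 0.113), Sparc by 0.49 ± 0.11 (adjusted p = 0.113) and Hook1 by -0.36 ± 0.07 (adjusted p = 0.0765). The 26 matrix genes had a median of 0.33 at 7 dpi beside 0.54 at 3 dpi, with 25 above 0. The 215 higher genes of 3 dpi had a median of 0.19 at 7 dpi and the 373 lower genes one of -0.12. Both comparisons share the 21 dpi libraries and the genes were chosen at 3 dpi, so these are descriptions. Myhas and the tendon list differed from that picture, at -0.10 ± 0.11 (adjusted p = 0.781) and a median of 0.05.

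Between 3 and 7 dpi directly, 1 gene (0.00672%) was called, Myhas, at -0.71 (adjusted p = 0.0308), with 1467 genes at an unadjusted p under 0.05. No call was made there with the H2-Ea-ps term. The other genes called against 21 dpi at 3 dpi are thus not shown to differ between 3 and 7 dpi.

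The genotypes were then compared in their change over days. The test of the difference called 1 gene (0.00672%) for 3 dpi against 21 dpi and 0 for 7 dpi, with 1059 and 661 genes at an unadjusted p under 0.05, and edgeR and DESeq2 called 0 in both. The gene was Gm10221 (chromosome 5, minus strand), a predicted gene at 0.0264, 0.0216, 0.0238 and 0.349 in HOMOmKO and at 0.0268, 1.86 and 1.85 in WT at 3 dpi, and at 18.0, 17.1, 6.7 and 12.7 in HOMOmKO and 1.84, 1.64, 0.0269 and 0.0236 in WT at 21 dpi. Values near 0.02 are libraries with no read, so its fitted difference of -3.93 (adjusted p = 0.0172) depends on the pseudocount. Within HOMOmKO 349 genes (2.35%) were called between 3 and 21 dpi and within WT 1 (0.00672%), the pseudogene Gm10335, named after its values were seen, at 0.723, 1.5 and 1.69 at 3 dpi and with no read at 21 dpi (adjusted p = 0.00582). These counts do not show a difference between genotypes, since its own test called 1 gene. Col1a1 differed by 0.57 in HOMOmKO and 1.24 in WT, a gap of -0.67 (adjusted p = 0.68), and Angptl7 by 1.21 and 2.00, a gap of -0.79 (adjusted p = 0.798).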

How the data were processed

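RNA of 22 saline-injected muscles was analysed from a table of normalised counts. TRI reagent was used on bead-lysed tissue to obtain total RNA, and the library kit was a directional one, per the labels' protocols. RSEM, Bowtie, FastQC and limma, with the build GRCm38 (mm10), are named in the submitters' processing notes. The authors deposited a signal in which 0.5 had been added to each read count and the sum scaled to 1000000 reads of effective library size (0.867 to 0.958 of the read total here); whole reads were recovered for 100% of values within 0.02 reads. Depth was 19.41 to 27.13 M reads, and 0 columns were left without a sample.

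The deposited values of all 14870 genes, the viral transgene aside, were put on a log2(value + 1) scale, on which changes of weakly expressed genes appear smaller than they are. The model (limma 3.58.1, R 4.3.3) had day and genotype as terms and a variance trend over mean intensity, and p-values were Benjamini-Hochberg adjusted over all genes. Genotype differences came from a fit with 1 mean per group. The fits were tested on simulated data. The planned test for normalised values was kept; edgeR 4.0.16, DESeq2 1.42.0 and voom on the recovered reads, other pseudocounts, filters, scalings, sample sets and each library left out were alternatives. Of the identifiers 14861 were found in GENCODE M21, used for names and coordinates on GRCm38, and 9 were not. RSEM divides reads of near-identical genes by estimation.

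The rule for named genes took up to 10 rises and 10 falls that were called, reached a mean of 5 normalised counts, had the same sign in both genotypes and did not overlap between days, plus up to 4 members of each list and 16 fixed genes (S100a8, the other one on that list, was not analysed here); predicted genes were passed over. The lists numbered 40, with 5 more drawn up after values were seen. The comparison, the members and the lists were chosen with earlier results of these data known.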

Additional observations from a re-analysis of the deposited data

Results flagged for a closer look

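Within groups of 4 libraries, 7 of 140 gene and group combinations held a library that stood apart by Dixon's test; chance gives about 1 in 20. Hba-a1, an adult haemoglobin chain whose reads are divided with its near-identical copy, was at 182 in WT 21 dpi replicate 1, against 35.7 to 43.6 in the other libraries of its group. In the same library Gja1 was at 14.8, against 12.3 to 12.7. Adamts2 was at 12.5 in HOMOmKO 3 dpi replicate 2, the library at 3 dpi with H2-Ea-ps, against 16.5 to 16.9 in the others. Col24a1 was at 5.51 in HOMOmKO 7 dpi replicate 1, against 12.3 to 13.3. In HOMOmKO 21 dpi replicate 3 the embryonic myosin Myh3 was at 15.9, against 7 to 7.89, and the metallothionein gene Mt2 at 2.39, against 0.876 to 1.06. Myod1 was at 8.91 in HOMOmKO 21 dpi replicate 1, against 17.8 to 20.1.

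The change of Gm10221 between 3 and 21 dpi differed between HOMOmKO and WT by -3.93 (limma, adjusted p = 0.0172), and edgeR, DESeq2 and voom on recovered reads did not call it.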

How the results depend on the processing

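Counts of called genes moved with the settings. Of 121 results followed over 38 alternatives, no single-gene value changed sign where it was called in either fit. Of the 373 lower genes, 369 kept their sign without the H2-Ea-ps libraries and 372 in WT libraries only. All 215 higher genes kept theirs in both. The genes were chosen by their difference in a fit that held these same libraries, which favours a kept sign. For 3 against 21 dpi (588 genes) the count was 2 with a term for H2-Ea-ps libraries, 0 without those libraries, 68 in the fit of all 56 libraries, 368 after quantile normalization, 284 with no genotype term, 91 in HOMOmKO libraries only and 3 in WT libraries only; leaving out 1 library gave 286 to 689. For 7 against 21 dpi (0 genes) it was 1 with the H2-Ea-ps term, 58 in DESeq2, 1 in HOMOmKO libraries only and 0 to 1 with a library left out. For 3 against 7 dpi (1 gene) it was 52 in DESeq2, 0 with the H2-Ea-ps term, without H2-Ea-ps libraries, in the 56-library fit, after quantile normalization and in HOMOmKO libraries only, and 0 to 6 with a library left out. The genotype difference at 3 dpi (1 gene) was called 0 times by edgeR, DESeq2 and voom, with a pseudocount of 0.25, at a mean of at least 5 and in the 56-library fit, and 0 to 4 times with a library left out; that at 7 dpi stayed at 0. Fewer libraries enter the sets restricted by genotype or by H2-Ea-ps, and without H2-Ea-ps libraries only WT ones set the difference from 21 dpi. For the other settings the cause was not tested. Among single genes, 106 calls were lost and 6 gained over all settings. With the replicate number as a block the counts were 499, 4 and 2 for the 3 comparisons of days and 1 for the genotype difference at 3 dpi. Whether the numbers pair the samples was not settled. Deviations of 51 pairs of libraries sharing a number had a mean correlation of 0.025 (-0.2 to 0.25), and 10 pairs were over 0.1. The 150 pairs with different numbers had a mean of -0.008 (-0.24 to 0.23), and 9 were over 0.1.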
